A study of Homo sapiens with 26 samples.

Results

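The data describe how poly(A) RNA differed after sodium arsenite in HCT116, a line from a human colorectal carcinoma, when wild-type IGF2BP1 was the transgene. Members were chosen by sample title, the 3 arsenite and 3 control libraries titled mCherry-IGF2BP1 WT, which makes 6 of the 26 libraries of the series. In both treatments these WT cells carried the mCherry-IGF2BP1 WT transgene together with Tet-OsTIR1-PURO, and both IGF2BP2 KO and IGF2BP3 KO, so the controls had the same deletions and transgenes. Arsenite cells received 500 µM sodium arsenite for 2 h and control cells received PBS. IGF2BP1 is an RNA-binding protein of cytoplasmic granules, and the series set cells with changes in its disordered linkers beside WT cells, with and without stress. RQ cells, used below for a single comparison, had the same knockouts and carried IGF2BP1 with 4 arginines of its first linker replaced by glutamine, in 3 libraries per treatment. Parental HCT116 cells, without knockouts or transgene, gave 1 library per treatment and are described without a test.

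Several features limit these cells as a model. The tagged IGF2BP1 came from a lentiviral construct under the hPGK promoter, in a population gated on mCherry by flow cytometry, and not from the gene's own promoter. RNA was taken from a small aliquot of NP-40 lysate after centrifugation, so RNA that went down with the pellet was not measured. Poly(A) selection favours polyadenylated RNA, and values are shares of a library, so a change in total RNA per cell would not be visible. In such bulk samples, fewer cells of a kind and less RNA per cell cannot be told apart.

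Arsenite binds thiol groups of proteins, unfolds them and raises oxidants. Cells are known to answer through HSF1, which drives chaperone genes, NRF2, which drives antioxidant genes, MTF1, which drives metallothioneins, and stress kinases, which switch on immediate early genes such as FOS and EGR1. Kinases that phosphorylate eIF2α reduce translation while ATF4 targets are made, and untranslated mRNA gathers with G3BP1 and other proteins in stress granules.

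The 6 WT libraries held 26032473 to 41467020 counts, and of the 10 colon epithelial markers 8 were above 1 CPM in each of them. CPM is a count per 1000000 counts of its library, and for the gene levels below the library totals were scaled with edgeR's TMM factors, which assume that most genes do not change. VIL1 and CEACAM5 were at or near 0. Leukocyte markers reached at most 0.218 CPM and endothelial markers 0.466 CPM, and of 4 fibroblast markers only COL1A1 was above 1 CPM, reaching 11.1. Small and structural RNA took 6.76% to 8.84% of control counts and 1.43% to 1.52% of arsenite counts. WT control replicate 2 stood apart from the other controls, with r of 0.9931 and 0.9943 to them against 0.9957 between those, computed across genes on log2 CPM. That library had the highest mitochondrial share, 26.9% of counts against 21.1% and 23.4% in the other controls. In the shared fit, Y396E arsenite replicate 3 listed 13897 genes with counts against at least 20850 in any other library.

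IGF2BP1, supplied by the transgene, is the gene the labels name first (ENSG00000159217.10, chromosome 17, 48997385 to 49056145 in hg38, plus strand). Its levels were 10.3, 9.82 and 13.7 CPM in the control libraries and 28, 26.4 and 28.4 CPM in the arsenite libraries, so the groups did not overlap. The mean was 11.3 ± 2.12 CPM in control and 27.6 ± 1.04 CPM in arsenite (SD, n = 3). IGF2BP1 rose by 1.29 ± 0.10 on the log2 scale (± SE throughout, edgeR quasi-likelihood adjusted p = 5.6e-11). In the single parental pair, without the transgene, its log2 ratio on library totals was 0.87, beside 1.52 in WT cells on that scale. Counts per gene do not separate reads of the transgene from those of the cells' own gene. IGF2BP2 had 74.4, 74.2 and 77 CPM in the control libraries and 66.4, 69.2 and 70.3 CPM in the arsenite libraries, with a log2 change of -0.13 ± 0.05 that stayed under the fold required. IGF2BP3 had 109, 109 and 111 CPM in the control libraries and 108, 108 and 103 CPM in the arsenite libraries, with a log2 change of -0.04 ± 0.05 (adjusted p = 0.435). Counts per gene do not test the knockouts, because a small deletion can leave the RNA of the gene in place.

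Arsenite moved most of the expressed transcriptome in both directions. Of 12767 genes tested, 8195 were called, which is 64.2%, with 4209 higher (33%) and 3986 lower (31.2%). Counts of called list members below are to be read beside these shares. A gene was called at a Benjamini-Hochberg adjusted p under 0.05 and a fold above 1.2, and it was tested when its mean over the 6 WT libraries was at least 1 CPM. The response was lopsided in size: 1419 called genes were more than 2-fold higher against 612 more than 2-fold lower, and beyond 4-fold there were 161 higher and 79 lower. Protein-coding genes were split almost evenly, with 66.2% of 11592 called, 35.7% higher and 30.5% lower. Noncoding calls were mostly lower, with 44.3% of 1175 called, 6.04% higher and 38.2% lower, which is 71 higher and 449 lower, or 133 and 295 with library totals alone. Libraries of the 2 groups did not overlap for 10222 genes, 80.1% of those tested, and for 8132 of the called genes. Leaving out WT control replicate 2 gave 7809 called genes, and 8925 were called without Y396E arsenite replicate 3.

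How libraries are scaled matters for the balance. With TMM factors 51.4% of the called genes were higher, and with library totals alone 68.6% were, 5509 higher and 2522 lower. The median log2 change over all genes was -0.01 with TMM factors and 0.22 with library totals alone, so each change here is relative to the TMM scale. Of the 220 genes named and called in these Results, 13 lost their call with library totals alone, all of them modest falls. They are pointed out where they appear. Genes named only in the closing sections were not part of this count. Parental ratios are on library totals, so WT medians on that scale are given beside parental medians. Parental cells gave a change of the same sign for 7934 of the 8195 called genes (96.8%), or 7929 with both on library totals, in libraries that did not enter the test. For the 1419 genes more than 2-fold higher in WT cells, the median log2 change on library totals was 1.58 in WT and 1.38 in parental cells, with the same sign in all 1419. For the 612 more than 2-fold lower, 604 had the same sign on that scale.

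**Figure D1:**
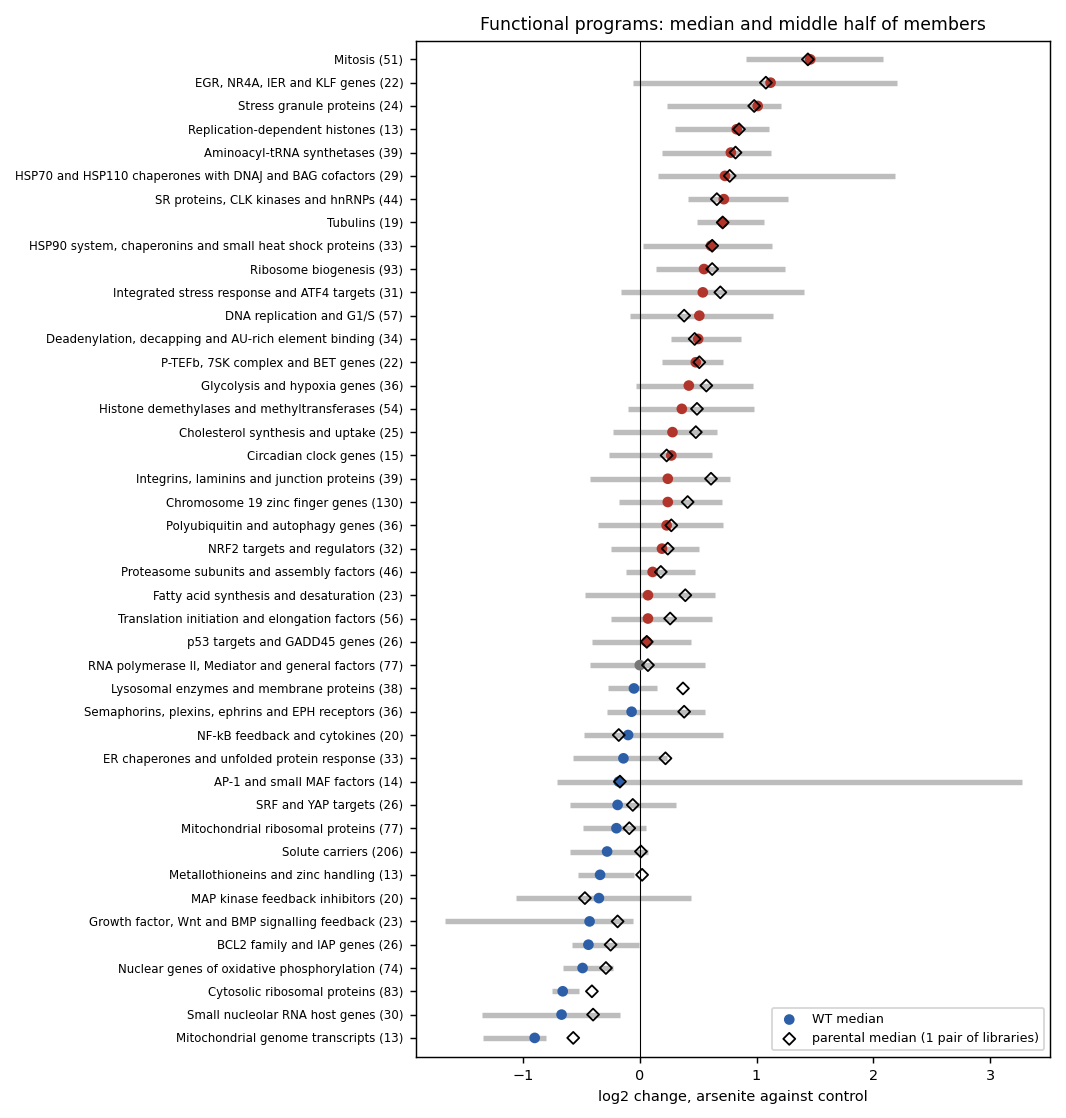
Median log2 change (points) and the interquartile range of the members (grey bars) for 43 gene lists, with the number of tested members in parentheses, and the median in the single pair of parental libraries (open diamonds), x axis arsenite against control on the log2 scale. WT values are on the TMM scale and parental values on library totals, which places WT medians 0.22 to 0.24 lower. Mitosis genes have the highest median, 1.46, and transcripts of the mitochondrial genome the lowest, -0.90.

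Immediate early genes gave the steepest rises, with the AP-1 family divided within itself. FOS, the founding partner of JUN in the AP-1 transcription factor (ENSG00000170345.10, chromosome 14, 75278826 to 75282230 in hg38, plus strand), had 4.97, 3.93 and 5.67 CPM in the control libraries and 1062, 1047 and 1058 CPM in the arsenite libraries. The arsenite libraries lay far above the controls and close to one another, and FOS rose 216-fold, 7.75 ± 0.10 on the log2 scale (adjusted p = 6.25e-25). FOSB had 28.5, 16.3 and 25.8 CPM in the control libraries and 1683, 1569 and 1591 CPM in the arsenite libraries, a log2 change of 6.09 ± 0.16 (adjusted p = 3.55e-19). JUN had 48.3, 36.4 and 49.4 CPM in the control libraries and 1210, 1178 and 1234 CPM in the arsenite libraries, a log2 change of 4.75 ± 0.09 (adjusted p = 1.1e-21). The groups did not overlap for either gene. ATF3, a stress-induced member of the same bZIP family, rose by 3.47 ± 0.09 and JUNB by 2.64 ± 0.07. Fos-related genes went down: FOSL2, at 95.9, 76.1 and 92.4 CPM in control and 28.3, 25.3 and 25.8 CPM in arsenite, fell by 1.74 ± 0.11, and FOSL1, at 812, 780 and 787 CPM in control and 348, 336 and 352 CPM in arsenite, fell 2.3-fold. JUND, at 304, 310 and 314 CPM in control and 283, 280 and 298 CPM in arsenite, had a log2 change of -0.11 ± 0.04 and was not called. Of the 14 tested genes of the AP-1 and small MAF list, 5 rose and 6 fell, and the median of -0.18 was above 0 with library totals alone (0.05), with the coding-length correction described below (0.08) and with stricter low-count filters (0.04 and 0.02). Their summed level was 1585 to 1718 CPM in control and 5558 to 5757 CPM in arsenite.

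**Figure D2:**
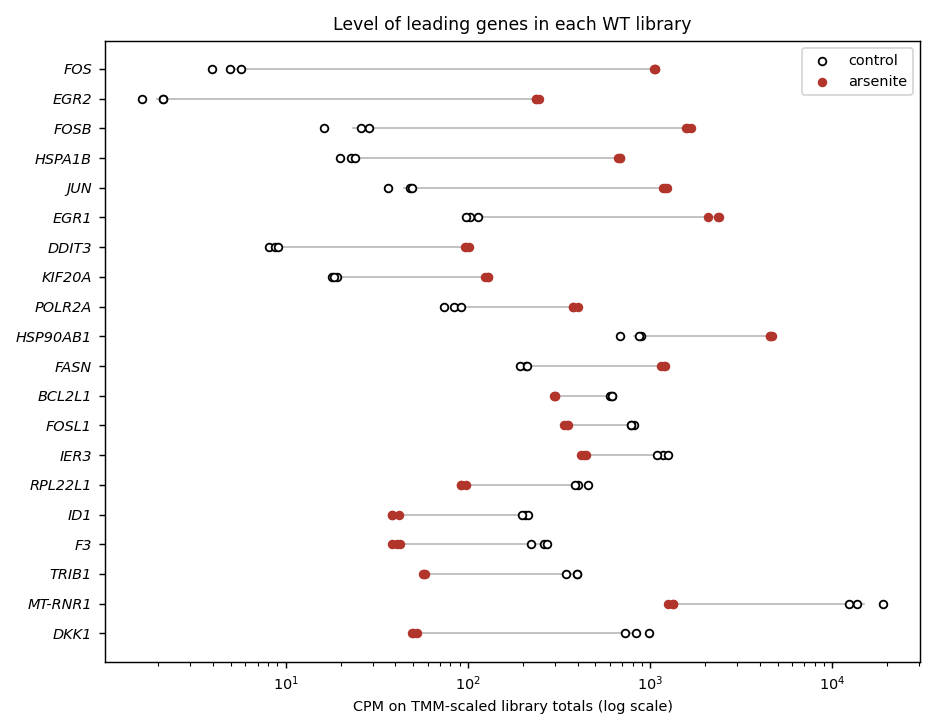
Level of the leading genes in each of the 6 WT libraries, x axis CPM on TMM-scaled library totals (log scale), open points control, filled points arsenite. FOS lies between 3.93 and 5.67 CPM in control and between 1047 and 1062 in arsenite, while DKK1 lies between 723 and 989 in control and between 49.4 and 52.5 in arsenite.

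The EGR, NR4A, IER and KLF genes mostly rose. Of the 22 tested, 15 rose and 5 fell, with a median of 1.12 against -0.01 over all genes. On library totals it was 1.35 in WT and 1.08 in parental cells. EGR2, a zinc finger transcription factor, had 2.13, 1.62 and 2.12 CPM in the control libraries and 245, 235 and 235 CPM in the arsenite libraries. The control libraries lay at a few CPM and the arsenite libraries close together far above them, and EGR2 rose by 6.91 ± 0.13. EGR1 had 103, 97.8 and 114 CPM in the control libraries and 2371, 2066 and 2348 CPM in the arsenite libraries, a log2 change of 4.43 ± 0.10 (adjusted p = 7.79e-21). EGR3 rose by 3.08 ± 0.13, IER2 by 2.46 ± 0.06 and the nuclear receptor NR4A1 by 2.22 ± 0.12. Some members fell: IER3, at 1182, 1259 and 1094 CPM in control and 434, 418 and 447 CPM in arsenite, fell by 1.44 ± 0.07, SRF, the factor that drives many immediate early genes, fell by 1.30 ± 0.06 and MYC fell by 0.96 ± 0.05.

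A CArG box, the sequence bound by SRF, was found on either strand in 1.01% of the 9469 RefSeq promoters of tested coding genes, each 300 bases long, and in 2 of the 15 promoters of the EGR list, EGR1 and SRF itself. These moved in opposite directions, by 4.43 and -1.30. The EGR1 stretch is shown because it carries 2 such boxes, in capitals, upstream of the gene start (chr5:138465329-138465428, GRCh38.p14, plus strand).
EGR1 promoter: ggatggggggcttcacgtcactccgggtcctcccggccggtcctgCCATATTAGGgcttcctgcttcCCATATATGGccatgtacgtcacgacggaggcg

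Feedback on kinase signalling was mixed. Of 20 MAP kinase feedback inhibitors 5 rose and 10 fell, with a median of -0.35. DUSP1, an early phosphatase that dephosphorylates p38, JNK and ERK, had 17, 13.9 and 13.6 CPM in the control libraries and 214, 208 and 205 CPM in the arsenite libraries. All arsenite libraries lay above all controls, and DUSP1 rose by 3.81 ± 0.06 (adjusted p = 1.74e-22). ERRFI1, which inhibits the EGF receptor, had 1590, 1531 and 1590 CPM in the control libraries and 622, 633 and 627 CPM in the arsenite libraries and fell by 1.32 ± 0.04. DUSP7, a phosphatase for ERK, fell by 1.22 ± 0.07 and SPRY4 by 0.70 ± 0.05, whereas DUSP6 rose by 0.39 ± 0.05.

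NF-κB feedback genes and cytokines were at low levels, and 20 of the 30 listed passed the low-count filter, so the counts cover those alone. Of these 7 rose (35%) and 6 fell (30%), near the 33% and 31.2% of all genes tested. The median of -0.10 turned to 0.13 with library totals alone and to 0.14 at a mean of at least 10 CPM. NFKBIZ, an atypical IκB that co-activates NF-κB, had 1.49, 2.16 and 1.69 CPM in the control libraries and 22, 20.7 and 23.5 CPM in the arsenite libraries and rose by 3.65 ± 0.18. TNFAIP3, the A20 deubiquitinase, had 3.22, 3.89 and 4.41 CPM in the control libraries and 17.7, 14.8 and 16.7 CPM in the arsenite libraries and rose by 2.10 ± 0.18. NFKBID, another nuclear IκB, went the other way with 9.68, 11.4 and 10.1 CPM in the control libraries and 2.24, 1.92 and 2.24 CPM in the arsenite libraries and fell by 2.28 ± 0.16. The groups did not overlap for any of these genes. The chemokine CXCL8 stayed at 1.75, 1.54 and 1.13 CPM in control and 1.29, 0.881 and 1.52 CPM in arsenite, with overlapping groups and a log2 change of -0.27 ± 0.30 in WT cells.

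Cytosolic chaperones mostly rose. Of 29 HSP70, HSP110, DNAJ and BAG genes 18 rose and 4 fell, with a median of 0.73. Their summed level was 2385 to 2558 CPM in control and 8442 to 8543 CPM in arsenite. HSPA1B, the inducible HSP70 (ENSG00000204388.7, chromosome 6, 31827738 to 31830254 in hg38, plus strand), had 22.7, 19.9 and 24 CPM in the control libraries and 681, 668 and 684 CPM in the arsenite libraries. No control library came near an arsenite library, and HSPA1B rose by 4.93 ± 0.09 (adjusted p = 3.2e-22). HSPA1A, at 0.776, 0.809 and 1.03 CPM in control and 24.6, 21.2 and 21.8 CPM in arsenite, rose by 4.69 ± 0.25. The split between HSPA1A and HSPA1B is uncertain, since their coding sequences are nearly identical and 36.6% of the exonic length of HSPA1B is shared with another annotated gene. HSPH1, the HSP110 nucleotide exchange factor, rose by 2.78 ± 0.06, its counterpart BAG3 by 3.02 ± 0.06, the J-domain proteins DNAJB1 and DNAJA1 by 2.49 ± 0.05 and 2.19 ± 0.06, and constitutive HSPA8 by 1.94 ± 0.06. BAG1, a cofactor with 100, 109 and 105 CPM in the control libraries and 67.6, 68.3 and 65.6 CPM in the arsenite libraries, fell by 0.64 ± 0.05.

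In the HSP90, chaperonin and small heat shock protein list 22 of 33 genes rose and 4 fell, with a median of 0.61. HSP90AB1, a main cytosolic HSP90, had 895, 682 and 871 CPM in the control libraries and 4649, 4545 and 4564 CPM in the arsenite libraries and rose by 2.49 ± 0.09 (adjusted p = 3.63e-17). HSP90AA1 had 1024, 814 and 982 CPM in the control libraries and 3589, 3690 and 3603 CPM in the arsenite libraries and rose by 1.95 ± 0.08. Control replicate 2 held the lowest control value of both, and arsenite libraries still lay above every control. The HSP90 cofactors STIP1 and CHORDC1 rose by 1.53 ± 0.07 and 1.55 ± 0.06, the chaperonin CCT2 by 1.24 ± 0.07 and mitochondrial HSPD1 by 1.42 ± 0.07. HSPE1, the cochaperonin of HSPD1, had a log2 change of -0.31 ± 0.12, a call lost with library totals alone and without control replicate 2. The prefoldin subunit PFDN1, at 86.3, 92.6 and 85.9 CPM in control and 51.9, 53.9 and 51.1 CPM in arsenite, fell by 0.75 ± 0.05. HSPB1, a small heat shock protein, had 554, 575 and 518 CPM in control and 491, 504 and 506 CPM in arsenite and was not called.

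The heat shock element that HSF1 binds, searched on both strands as GAA, TTC and GAA with 2 free bases between them, was found in 28 of the 9469 promoters (0.296%). It was found in the promoters of HSPA8, DNAJA1 and DNAJB6 among 26 of the HSP70 list and of CHORDC1 among 29 of the HSP90 list. DNAJB6 had a log2 change of 0.26 ± 0.05 and was not called, though it was with library totals alone. CHORDC1 is printed because overlapping matches run together into a single stretch of repeats, in capitals (chr11:90223054-90223153, GRCh38.p14, minus strand). Real elements tolerate mismatches, so promoters without this exact sequence are not said to lack one.
CHORDC1 promoter: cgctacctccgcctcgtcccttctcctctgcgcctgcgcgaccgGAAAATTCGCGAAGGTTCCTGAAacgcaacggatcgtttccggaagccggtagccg

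Proteasome genes changed mostly by small amounts. Of 46 subunits and assembly factors 18 rose and 5 fell, with a median of 0.11, and with the coding-length correction 25 were higher and 2 lower at a median of 0.34. PSMD1, a scaffold of the regulatory particle, had 56.9, 53.6 and 56.8 CPM in the control libraries and 212, 219 and 214 CPM in the arsenite libraries. It rose by 1.95 ± 0.07 and was the single member beyond 2-fold. PSMD2, at 244, 186 and 235 CPM in control and 428, 419 and 430 CPM in arsenite, rose by 0.94 ± 0.07, and the assembly factor PSMG4, at 32.3, 31.6 and 26.2 CPM in control and 16, 15.5 and 16.8 CPM in arsenite, fell by 0.90 ± 0.10. UBB, a polyubiquitin gene, rose by 0.79 ± 0.05. ZFAND2A, which encodes the arsenite-inducible proteasome adaptor AIRAP, had 22.4, 25 and 20 CPM in the control libraries and 90.1, 92.1 and 91.1 CPM in the arsenite libraries and rose by 2.02 ± 0.07. In that list of polyubiquitin and autophagy genes 18 of 36 rose and 9 fell. SQSTM1, an autophagy receptor, rose by 0.71 ± 0.05, and WIPI1, which acts early in autophagosome formation, fell by 0.72 ± 0.07.

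Genes for chaperones of the endoplasmic reticulum and for the unfolded protein response did not move as a group. Of 33 genes 8 rose and 13 fell (median -0.14), and the median turned to 0.09 with library totals alone, beside 0.22 in parental cells. HERPUD1, which serves ER-associated degradation, had 36.3, 40.1 and 35.1 CPM in the control libraries and 149, 143 and 154 CPM in the arsenite libraries and rose by 2.00 ± 0.07. HSPA5, the ER member of the HSP70 family, rose by 0.68 ± 0.09, HSP90B1 by 0.88 ± 0.09 and XBP1 by 0.78 ± 0.08. The oxidase ERO1A, at 126, 140 and 127 CPM in control and 71.2, 68.7 and 70 CPM in arsenite, fell by 0.90 ± 0.07, and DNAJC10, an ER reductase, fell by 0.72 ± 0.06.

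Metallothioneins did not rise together. Of 13 metallothionein and zinc handling genes 1 rose and 9 fell, with a median of -0.34, against 3 and 4 with a median of -0.10 with library totals alone, and 1 and 6 without control replicate 2. The riser was MT1X, which binds zinc and other metals, at 20.7, 27.5 and 20.5 CPM in the control libraries and 68.7, 68.8 and 71.8 CPM in the arsenite libraries, with a log2 change of 1.61 ± 0.11. MT1X shares 41.3% of its exonic length with another gene and resembles other metallothioneins, so its level is uncertain. MT2A, the most abundant metallothionein here, had 848, 1003 and 806 CPM in the control libraries and 753, 726 and 725 CPM in the arsenite libraries with a log2 change of -0.27 ± 0.07, and MT1E had one of -0.30 ± 0.08. Both calls were lost with library totals alone and without control replicate 2. MT1F fell by 0.63 ± 0.17. The zinc exporter SLC30A1, at 120, 114 and 105 CPM in control and 62, 58.9 and 61.2 CPM in arsenite, fell by 0.90 ± 0.11, and SLC30A5 fell by 0.77 ± 0.07. The metal response element TGCACNC was in 11.1% of all promoters, 10.2% of those of genes called higher and 11.9% of those called lower.

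Among NRF2 targets and regulators 11 of 32 rose (34.4%) and 8 fell (25%), beside 33% and 31.2% of all genes tested. The median was 0.19, and with library totals alone 21 were higher and 7 lower. HMOX1, which degrades haem, had 21.1, 17.6 and 20.9 CPM in the control libraries and 38.4, 37.7 and 38.9 CPM in the arsenite libraries and rose by 0.95 ± 0.11 (adjusted p = 2.47e-08). PGD, of the pentose phosphate pathway, had 85.5, 72.9 and 86.5 CPM in the control libraries and 195, 197 and 199 CPM in the arsenite libraries and rose by 1.27 ± 0.07, and OSGIN1, at 9.63, 8.66 and 9.87 CPM in control and 23.7, 21.8 and 22.4 CPM in arsenite, rose by 1.27 ± 0.09. The quinone reductase NQO1 rose by 0.42 ± 0.05. Other canonical targets did not follow: thioredoxin reductase TXNRD1 fell by 0.64 ± 0.04, sulfiredoxin SRXN1 by 0.63 ± 0.18 and the cystine transporter SLC7A11 by 0.30 ± 0.10, the last a call lost with library totals alone. GCLM, which helps make glutathione, had 41.1, 36.1 and 42.8 CPM in control and 39.8, 45.7 and 43.1 CPM in arsenite and was called higher with library totals alone. FTL, the ferritin light chain, had 2389, 2833 and 2312 CPM in the control libraries and 1327, 1326 and 1272 CPM in the arsenite libraries and fell by 0.94 ± 0.06. The antioxidant response element TGACNNNGC was in 15.3% of all promoters, 15.7% of those higher and 15.2% of those lower.

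Integrated stress response genes rose in most cases. Of 31 genes 18 rose and 6 fell, with a median of 0.54. On library totals it was 0.77 in WT and 0.69 in parental cells. DDIT3, encoding CHOP, had 8.1, 8.78 and 9.08 CPM in the control libraries and 97.3, 95.8 and 101 CPM in the arsenite libraries and rose by 3.51 ± 0.09 (adjusted p = 2.69e-19). CHAC1, a glutathione-degrading enzyme, had 2.7, 1.27 and 3.02 CPM in the control libraries and 18.9, 20.3 and 21.9 CPM in the arsenite libraries and rose by 3.10 ± 0.19. PPP1R15A, the stress-induced eIF2α phosphatase subunit, rose by 2.25 ± 0.05, SESN2 by 2.12 ± 0.12 and DDIT4, an inhibitor of mTORC1, by 2.53 ± 0.10. Each of these had arsenite libraries above all controls. ATF4, which is controlled largely at translation, had 725, 778 and 741 CPM in the control libraries and 610, 617 and 622 CPM in the arsenite libraries with a log2 change of -0.28 ± 0.04, a call lost with library totals alone (-0.05) and without control replicate 2. The amino acid transporter SLC7A5, at 1228, 1175 and 1041 CPM in control and 526, 539 and 542 CPM in arsenite, fell by 1.10 ± 0.06, while its partner SLC3A2 rose by 0.48 ± 0.09. ASNS also rose, but 82.4% of its exonic length is shared with another gene and it had 0.575, 0.193 and 0.497 CPM in control and 2.02, 1.99 and 1.94 CPM in arsenite, so its value is uncertain.

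Aminoacyl-tRNA synthetases, which charge tRNAs and include known ATF4 targets, rose broadly. Of 39 genes 27 rose and 1 fell, with a median of 0.78, and their summed level was 2093 to 2370 CPM in control and 4537 to 4590 CPM in arsenite. AARS1 had 46.7, 35.6 and 44.5 CPM in the control libraries and 219, 220 and 220 CPM in the arsenite libraries and rose by 2.37 ± 0.10. EPRS1, for glutamate and proline, had 42.8, 42.9 and 45.1 CPM in the control libraries and 225, 224 and 223 CPM in the arsenite libraries and rose by 2.36 ± 0.05 (adjusted p = 2.25e-21). TARS1 rose by 1.73 ± 0.08, MARS1 by 1.32 ± 0.07, CARS1 by 1.29 ± 0.09, NARS1 by 1.17 ± 0.07 and IARS1 by 1.07 ± 0.05. The exception was MARS2, the mitochondrial methionine enzyme, at 26.8, 28.7 and 28.5 CPM in control and 17.7, 15.4 and 15.4 CPM in arsenite, which fell by 0.79 ± 0.08. With the coding-length correction 25 were higher and 2 lower, at a median of 0.50.

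The CEBP-ATF response element TGATGNAA, searched on both strands, is printed because several synthetases carry it. It was in 148 of the 9469 promoters (1.56%) and in 7 of 32 promoters of the synthetase list (21.9%), in 3 of 27 of the integrated stress response list and in 8 of 129 promoters of genes more than 4-fold higher (6.2%). The 7 synthetases with a match had a median log2 change of 1.29, and 6 of them rose. The 25 without a match had a median of 0.49, with 15 higher. YARS2, the remaining gene with a match, had a log2 change of 0.09 ± 0.06 and was not called, though it was with library totals alone. Each stretch is 30 bases of GRCh38.p14, 5′ to 3′ on the strand of the gene, with the match in capitals. In reading order they lie at chr15:40953251-40953280, chr1:212565205-212565234, chr16:70289675-70289704, chr5:33440956-33440985, chr12:57488053-57488082, chr11:3057407-3057436, chr18:57621804-57621833 and chr9:92293692-92293721. All but ATF3 hold the same letters, TGATGCAA, or their reverse complement, TTGCATCA.
CHAC1: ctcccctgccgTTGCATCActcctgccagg
ATF3: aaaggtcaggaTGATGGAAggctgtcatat
AARS1: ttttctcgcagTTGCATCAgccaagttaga
TARS1: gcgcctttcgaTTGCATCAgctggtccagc
MARS1: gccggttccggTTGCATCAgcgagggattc
CARS1: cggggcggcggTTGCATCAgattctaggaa
NARS1: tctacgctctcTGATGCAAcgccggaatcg
IARS1: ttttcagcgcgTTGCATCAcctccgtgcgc

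Genes of p53 signalling and of cell death gave no single direction. Of 26 p53 targets and GADD45 genes 9 rose and 9 fell (34.6% each), near the 33% and 31.2% of all genes tested. The median was 0.06, and -0.09 with a correction for GC content. XPC, a DNA repair factor, had 20.7, 16.3 and 23.2 CPM in the control libraries and 49.7, 53.8 and 48.5 CPM in the arsenite libraries and rose by 1.33 ± 0.09, and the phosphatase PPM1D, at 30.9, 34.2 and 35.6 CPM in control and 83.5, 75.7 and 82.7 CPM in arsenite, rose by 1.27 ± 0.06. TP53INP1, at 11.9, 15.2 and 18.1 CPM in control and 6.51, 6.95 and 6.54 CPM in arsenite, fell by 1.17 ± 0.17, and MDM2, the ligase for p53, fell by 0.99 ± 0.10. CDKN1A, the cell cycle inhibitor p21, stayed at 412, 429 and 385 CPM in control and 376, 366 and 380 CPM in arsenite and was not called. In the BCL2 and IAP list 6 of 26 genes rose and 15 fell, with a median of -0.44, which was -0.08 with the coding-length correction. CFLAR, an inhibitor of caspase-8 activation, had 45.7, 40.4 and 42.3 CPM in the control libraries and 18, 17.1 and 19.4 CPM in the arsenite libraries and fell by 1.24 ± 0.08. BCL2L1, encoding BCL-XL, had 598, 619 and 617 CPM in the control libraries and 300, 297 and 301 CPM in the arsenite libraries and fell by 1.03 ± 0.04 (adjusted p = 2.8e-16). APAF1, of the apoptosome, rose by 1.03 ± 0.25 at 3.88, 3.43 and 4.24 CPM in control and 7.21, 7.69 and 8.75 CPM in arsenite, and BBC3, encoding PUMA, rose by 0.84 ± 0.14.

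Growth and Wnt signals included the steepest fall among coding genes with a mean of at least 100 CPM. Of 23 growth factor, Wnt and BMP feedback genes 5 rose and 12 fell (median -0.43), and their summed level was 4055 to 4919 CPM in control and 1176 to 1193 CPM in arsenite. DKK1, a secreted Wnt inhibitor (ENSG00000107984.10, chromosome 10, 52314281 to 52317657 in hg38, plus strand), had 840, 989 and 723 CPM in the control libraries and 49.4, 49.7 and 52.5 CPM in the arsenite libraries. The arsenite libraries lay close together and far below every control, and DKK1 fell 16.8-fold, a log2 change of -4.07 ± 0.10 (adjusted p = 3.34e-20). ID2 had 252, 287 and 252 CPM in the control libraries and 43.9, 43.6 and 44.6 CPM in the arsenite libraries and fell by 2.58 ± 0.07, and ID1 fell by 2.38 ± 0.09. Both encode inhibitors of bHLH factors and are BMP targets. The EGF receptor ligands EREG and AREG fell by 1.85 ± 0.07 and 1.68 ± 0.08. TRIB1, a pseudokinase outside the list, had 395, 345 and 395 CPM in the control libraries and 57, 57.9 and 57.1 CPM in the arsenite libraries and fell by 2.72 ± 0.06. RNF43, which removes Wnt receptors, was higher at 6.41, 5.01 and 7.92 CPM in control and 14.9, 15.2 and 13.7 CPM in arsenite, but 69.7% of its exonic length is shared with another gene, so its value is uncertain. On library totals DKK1 had a log2 change of -3.83 in WT and -3.07 in parental cells, and ID1 one of -2.14 and -1.68.

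Targets of SRF and YAP were divided in a similar way, 7 of 26 higher and 11 lower, with a median of -0.19 that was 0.03 with library totals alone. F3, which encodes tissue factor, had 262, 273 and 223 CPM in the control libraries and 38.5, 41 and 42.3 CPM in the arsenite libraries. It fell by 2.64 ± 0.09 (adjusted p = 9.93e-18). MYL9, a myosin light chain, had 141, 145 and 143 CPM in control and 45.6, 42.4 and 47.5 CPM in arsenite and fell by 1.66 ± 0.10. ACTN1, an actin crosslinker with 80.9, 61.3 and 81 CPM in control and 190, 194 and 188 CPM in arsenite, rose by 1.36 ± 0.08, and MYH9, nonmuscle myosin, rose by 0.91 ± 0.08. CCN1 and CCN2, which are common YAP readouts, fell by 0.46 ± 0.09 and 0.49 ± 0.12, calls lost with library totals alone.

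Mitosis genes had the highest median of the 43 lists. Of 51 tested genes 44 rose and the other 7 did not pass the test, 36 of them rose beyond 2-fold, and the median was 1.46. On library totals it was 1.69 in WT and 1.44 in parental cells. The summed level was 2304 to 2483 CPM in control and 5421 to 5483 CPM in arsenite. KIF20A, a kinesin of the central spindle, had 19.2, 18 and 18.4 CPM in the control libraries and 124, 128 and 129 CPM in the arsenite libraries and rose by 2.78 ± 0.07 (adjusted p = 6.75e-20). TTK, the spindle checkpoint kinase MPS1, had 11.2, 11 and 11.3 CPM in the control libraries and 71, 74.1 and 73.8 CPM in the arsenite libraries and rose by 2.71 ± 0.10. For both genes the libraries of each group lay close together and the groups far apart. TOP2A, which untangles chromosomes, rose by 2.51 ± 0.06, CENPE by 2.30 ± 0.10, AURKA by 1.66 ± 0.06, CCNB1 by 1.34 ± 0.06 and CDK1 by 0.84 ± 0.07. With the coding-length correction 49 were higher and 1 lower, at a median of 1.15.

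CCAAT boxes, bound by NF-Y, are typical of mitotic promoters. CCAAT on either strand was in 36.8% of the 9469 promoters and in 34 of 44 promoters of the mitosis list (77.3%). Within the list the 34 genes with a match had a median log2 change of 1.29 and the 10 without it 1.93. KIF20A (chr5:138178970-138179069, plus strand) and TOP2A (chr17:40418047-40418146, minus strand) are printed as examples, each with 2 boxes in capitals, read as ATTGG on this strand, GRCh38.p14.
KIF20A promoter: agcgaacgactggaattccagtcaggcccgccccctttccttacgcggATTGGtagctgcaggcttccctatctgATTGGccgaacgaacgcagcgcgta
TOP2A promoter: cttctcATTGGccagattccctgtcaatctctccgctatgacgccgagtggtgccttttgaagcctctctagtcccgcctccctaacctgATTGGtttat

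Genes of DNA replication and G1/S also leaned upward, with 32 of 57 higher and 9 lower (median 0.51). RRM1, the large subunit of ribonucleotide reductase, had 37.7, 30.3 and 38.1 CPM in the control libraries and 150, 153 and 152 CPM in the arsenite libraries and rose by 2.10 ± 0.07. MCM2, of the replicative helicase, had 73.3, 50.3 and 76.4 CPM in the control libraries and 242, 239 and 241 CPM in the arsenite libraries and rose by 1.85 ± 0.11. Among the members that fell, the cyclin gene CCND3, at 64.9, 67.3 and 61.9 CPM in control and 42.5, 42 and 43.3 CPM in arsenite, fell by 0.60 ± 0.07. CCND1 and CCNE2 fell by 0.29 ± 0.06 and 0.30 ± 0.09, calls lost with library totals alone. PCNA, the replication clamp, had 315, 300 and 289 CPM in control and 274, 293 and 281 CPM in arsenite and was not called. Replication-dependent histone mRNA is not polyadenylated in cycling cells, and 13 of 68 listed genes passed the low-count filter, with 8 higher and 2 lower, or 8 and 1 without control replicate 2. H2BC12 had 11.2, 11.2 and 11.4 CPM in control and 22.9, 19.3 and 21.1 CPM in arsenite and rose by 0.91 ± 0.12, and H1-2 rose by 0.83 ± 0.11. H2AC25, at 15.9, 17.8 and 16.4 CPM in control and 14.1, 11.8 and 12.5 CPM in arsenite, fell by 0.39 ± 0.11, with the call lost under library totals alone and a change of the other sign, 0.16, under the coding-length correction.

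Regulators of transcription elongation mostly rose: 16 of 22 P-TEFb, 7SK complex and BET genes rose and 6 were not called, with a median of 0.48. After the coding-length correction 6 were higher and 5 lower at a median of 0.09, so the list no longer leaned one way. HEXIM1, which inhibits P-TEFb within the 7SK complex, had 95.3, 107 and 99.2 CPM in the control libraries and 325, 330 and 331 CPM in the arsenite libraries. The groups did not overlap, HEXIM1 rose by 1.71 ± 0.04, and HEXIM2 rose by 1.19 ± 0.10. BRD2 rose by 0.96 ± 0.04 and CDK9, the kinase of P-TEFb, by 0.50 ± 0.06, while its cyclin CCNT1 was at 29.1, 29.4 and 30.7 CPM in control and 33.6, 31.7 and 30.1 CPM in arsenite and was not called, though it was with library totals alone. In the RNA polymerase II, Mediator and general factor list 28 of 77 rose (36.4%) and 26 fell (33.8%), near the 33% and 31.2% of all genes tested. The median was 0.00, and with library totals alone 34 were higher and 17 lower. POLR2A, the catalytic subunit, had 83.5, 73.6 and 91.3 CPM in the control libraries and 401, 378 and 377 CPM in the arsenite libraries and rose by 2.22 ± 0.07. MED12 rose by 2.03 ± 0.10, at 8.28, 7.16 and 7.69 CPM in control and 34.1, 30.5 and 30.4 CPM in arsenite, and MED26 by 1.31 ± 0.10. MED9, another Mediator subunit, had 25.4, 30.7 and 25.8 CPM in control and 6, 4.54 and 5.92 CPM in arsenite and fell by 2.32 ± 0.11, and POLR2L, a polymerase subunit, fell by 1.03 ± 0.08.

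Splicing and decay regulators rose in most cases. Of 44 SR proteins, CLK kinases and hnRNPs 38 rose and 2 fell (median 0.72, 0.75 with the coding-length correction). CLK1, a kinase that phosphorylates SR proteins, had 18.9, 18.3 and 17.1 CPM in the control libraries and 95.2, 93.2 and 101 CPM in the arsenite libraries and rose by 2.41 ± 0.06, with no overlap. HNRNPU had 168, 136 and 161 CPM in the control libraries and 679, 680 and 683 CPM in the arsenite libraries and rose by 2.13 ± 0.08. The nuclear speckle scaffolds SRRM2 and SON rose by 1.66 ± 0.05 and 1.62 ± 0.06, TRA2B by 1.29 ± 0.04 and SRSF3 by 0.62 ± 0.04. SRSF9, at 343, 357 and 345 CPM in control and 261, 261 and 261 CPM in arsenite, fell by 0.42 ± 0.04, a call lost with library totals alone. In the deadenylation, decapping and AU-rich element list 25 of 34 rose and 7 fell (median 0.50). ZFP36, which binds AU-rich elements and recruits deadenylases, had 78.1, 78.9 and 77.4 CPM in the control libraries and 264, 249 and 263 CPM in the arsenite libraries and rose by 1.73 ± 0.06. TOB1, another deadenylase recruiter, had 49.3, 47.3 and 52.2 CPM in control and 169, 161 and 173 CPM in arsenite and rose by 1.75 ± 0.06, and XRN1, the cytoplasmic exonuclease, rose by 1.31 ± 0.10. LSM1, of the decapping complex, had 76.8, 88 and 77.7 CPM in control and 43.2, 41.9 and 43.5 CPM in arsenite and fell by 0.91 ± 0.06.

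Chromatin genes had upward medians that depended on the processing. Of 54 histone demethylases and methyltransferases 31 rose and 7 fell at a median of 0.36, which became -0.01 with 14 higher and 20 lower under the coding-length correction. KDM5B, an H3K4 demethylase, had 4.74, 6.08 and 4.97 CPM in the control libraries and 32.3, 30.9 and 32.1 CPM in the arsenite libraries and rose by 2.60 ± 0.11. KDM3A, an H3K9 demethylase, had 11.7, 9.78 and 12.7 CPM in control and 51.8, 46.4 and 47.9 CPM in arsenite and rose by 2.09 ± 0.08, and the methyltransferase SETD1B, at 33.7, 30.7 and 33.6 CPM in control and 16.9, 15.8 and 16.9 CPM in arsenite, fell by 0.98 ± 0.11. Zinc finger genes of chromosome 19, many of them KRAB repressors, had 44 of 130 higher (33.8%) and 17 lower (13.1%), beside 33% and 31.2% of all genes tested. Their median was 0.24, but it was -0.05 among genes of at least 10 CPM. ZNF823 had 2.16, 2.97 and 2.42 CPM in control and 9.24, 8.9 and 8.75 CPM in arsenite and rose by 1.84 ± 0.14, ZNF296 rose by 1.76 ± 0.08, and ZNF749 fell by 0.73 ± 0.21.

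Stress granule proteins, most of them RNA-binding, had 17 of 24 genes higher, 1 lower and a median of 1.01 (0.60 with the coding-length correction). On library totals the median was 1.24 in WT and 0.98 in parental cells. G3BP1, the nucleator of arsenite granules, had 94.9, 76.4 and 93.8 CPM in the control libraries and 192, 204 and 187 CPM in the arsenite libraries and rose by 1.14 ± 0.07. CAPRIN1, its partner, rose by 1.34 ± 0.06, TIA1 by 1.14 ± 0.07 and DDX3X by 1.16 ± 0.07. ATXN2, at 18.1, 16.1 and 17.7 CPM in control and 65.1, 61.9 and 58 CPM in arsenite, rose by 1.83 ± 0.07, and PRRC2C, at 50.1, 51.6 and 54.2 CPM in control and 154, 149 and 145 CPM in arsenite, rose by 1.52 ± 0.06. The member that fell was the most abundant, PABPC1, the cytoplasmic poly(A)-binding protein, with 3694, 3976 and 3905 CPM in the control libraries and 2606, 2614 and 2630 CPM in the arsenite libraries and a log2 change of -0.56 ± 0.04. The groups did not overlap for any of these genes.

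Ribosomal protein genes fell, while most genes for building ribosomes rose. Of 83 cytosolic ribosomal protein genes 79 fell and the other 4 did not pass the test, at a median of -0.66. On library totals 66 were lower, and the median was -0.42 in WT and -0.41 in parental cells. Their summed level was 120256 to 135180 CPM in control and 81805 to 83179 CPM in arsenite. RPL22L1, a paralog of RPL22, had 400, 454 and 387 CPM in the control libraries and 91.7, 91.4 and 97.1 CPM in the arsenite libraries and fell by 2.15 ± 0.07. RPLP1 fell by 0.94 ± 0.06 and RPS27 by 0.86 ± 0.05. RPL17 also passed the rule for named genes, at 13.3, 15.3 and 13 CPM in control and 6.44, 7.79 and 5.77 CPM in arsenite, but 49.4% of its exonic length is shared with a read-through gene and its level is uncertain. After the coding-length correction 15 were lower at a median of -0.14, so most of these calls were not made against genes of like length. Of 93 ribosome biogenesis genes 66 rose and 10 fell, at a median of 0.55, and 0.38 with the correction. NAT10, an RNA acetyltransferase of the nucleolus, had 36.3, 31.4 and 38.1 CPM in the control libraries and 134, 136 and 137 CPM in the arsenite libraries and rose by 1.94 ± 0.06. NOP58, of the box C/D snoRNP, had 86.8, 75.3 and 87.4 CPM in the control libraries and 314, 310 and 312 CPM in the arsenite libraries and rose by 1.91 ± 0.07, and nucleolin (NCL) rose by 1.47 ± 0.10. POLR1C, shared by RNA polymerases I and III, had 53.8, 54.5 and 55.7 CPM in control and 26.9, 27.4 and 28 CPM in arsenite and fell by 1.00 ± 0.09. The E-box CACGTG was in 10.3% of all promoters and in 27 of 79 promoters of this list (34.2%).

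Translation factors were spread around 0, with 22 of 56 higher and 14 lower at a median of 0.07, or -0.01 with the GC correction. EIF5B, which joins the ribosomal subunits, had 57.1, 56.5 and 70.4 CPM in the control libraries and 241, 248 and 254 CPM in the arsenite libraries and rose by 2.01 ± 0.08. EIF3A, the largest eIF3 subunit, had 149, 126 and 151 CPM in the control libraries and 490, 474 and 472 CPM in the arsenite libraries and rose by 1.75 ± 0.07. EEF2, the translocase, rose by 1.04 ± 0.05, while EEF1A1, at 6662, 7130 and 7229 CPM in control and 6947, 6800 and 6689 CPM in arsenite, was not called. EIF4EBP2, which sequesters eIF4E, had 173, 169 and 174 CPM in control and 84.1, 82.3 and 80.7 CPM in arsenite and fell by 1.06 ± 0.05.

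Transcripts of the mitochondrial genome fell, each of the 13 protein-coding ones, with a median of -0.90. On library totals it was -0.66 in WT and -0.57 in parental cells. MT-ND1, a subunit of complex I, had 6074, 7466 and 5538 CPM in the control libraries and 2465, 2347 and 2291 CPM in the arsenite libraries and fell by 1.43 ± 0.11. MT-ND6, encoded on the other strand, had 251, 235 and 161 CPM in the control libraries and 66.2, 61 and 48.6 CPM in the arsenite libraries and fell by 1.88 ± 0.23. Control replicate 2 held the highest value of MT-ND1, and without it the median of the list was -0.79. The ribosomal RNAs of the organelle fell further: MT-RNR1 had 13634, 19021 and 12312 CPM in the control libraries and 1330, 1326 and 1248 CPM in the arsenite libraries, a log2 change of -3.53 ± 0.22, and MT-RNR2 had 65578, 85655 and 59369 CPM in the control libraries and 12615, 13118 and 12073 CPM in the arsenite libraries, a log2 change of -2.48 ± 0.16.

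Nuclear genes for the same organelle gave a different answer depending on the length of the coding sequence. Of 74 oxidative phosphorylation genes 10 rose and 55 fell at a median of -0.49, and with the coding-length correction 16 were higher and 1 lower at a median of 0.09. NDUFA1, with 127, 153 and 127 CPM in the control libraries and 73.7, 78.4 and 69.9 CPM in the arsenite libraries, fell by 0.87 ± 0.07, and NDUFA11, at 52, 52.5 and 47.7 CPM in control and 26.5, 27.1 and 29.1 CPM in arsenite, fell by 0.88 ± 0.09. Both are small accessory subunits of complex I. NDUFS1, its largest subunit, had 52.3, 41.7 and 49.3 CPM in the control libraries and 97.3, 99.5 and 103 CPM in the arsenite libraries and rose by 1.06 ± 0.07. For mitochondrial ribosomal proteins 11 of 77 rose and 35 fell at a median of -0.20, which was 0.03 with library totals alone and 0.16 with the correction. MRPL33 and MRPL57 fell by 1.02 ± 0.10 and 0.83 ± 0.05, and MRPS31 rose by 1.24 ± 0.07.

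Glycolysis and lipid synthesis genes included large rises. Of 36 glycolysis and hypoxia genes 22 rose and 7 fell (median 0.42). HK1, which phosphorylates glucose, had 17.9, 13.6 and 21.6 CPM in the control libraries and 61.8, 58.3 and 61.7 CPM in the arsenite libraries and rose by 1.77 ± 0.12. PFKM, a phosphofructokinase, had 60.8, 46.7 and 65.1 CPM in the control libraries and 173, 172 and 172 CPM in the arsenite libraries and rose by 1.58 ± 0.08, and HK2 rose by 1.42 ± 0.10. SLC16A3, the lactate exporter, had 651, 705 and 521 CPM in control and 472, 449 and 448 CPM in arsenite and fell by 0.46 ± 0.09, and the glucose transporter SLC2A1 fell by 0.37 ± 0.07, both calls lost with library totals alone. For cholesterol synthesis 13 of 25 rose and 6 fell (median 0.28). HMGCS1, an early enzyme of the pathway, had 35.2, 27.9 and 36.7 CPM in control and 84.7, 79.2 and 82.8 CPM in arsenite and rose by 1.30 ± 0.08, and INSIG1, which restrains the pathway, fell by 0.88 ± 0.08. Of 23 fatty acid genes 9 were higher (39.1%) and 8 lower (34.8%), beside 33% and 31.2% of all genes tested. Their median of 0.07 was -0.06 with the GC correction. FASN, fatty acid synthase, had 208, 193 and 211 CPM in the control libraries and 1210, 1191 and 1150 CPM in the arsenite libraries and rose by 2.53 ± 0.05 (adjusted p = 3.81e-21). ACLY, which makes cytosolic acetyl-CoA, had 73.3, 60.4 and 72.3 CPM in the control libraries and 301, 294 and 293 CPM in the arsenite libraries and rose by 2.11 ± 0.06, and the elongase ELOVL1 fell by 0.89 ± 0.06.

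Membrane genes were mixed. Among 206 solute carriers 32 rose and 100 fell (median -0.28, -0.45 with the coding-length correction). With library totals alone 52 were higher and 64 lower at a median of -0.05, beside 0.01 in parental cells. The phosphate transporter SLC20A2 had 156, 163 and 145 CPM in the control libraries and 39, 37.2 and 36.1 CPM in the arsenite libraries and fell by 2.05 ± 0.08. SLC16A6, at 35.2, 37.8 and 30.8 CPM in control and 9.79, 8.83 and 10.3 CPM in arsenite, fell by 1.84 ± 0.09, and SLC25A12, the mitochondrial aspartate-glutamate carrier, rose by 1.28 ± 0.09. Lysosomal genes had 8 of 38 higher (21.1%) and 11 lower (28.9%) at a median of -0.05, beside 33% and 31.2% of all genes tested. The sign turned with library totals alone (11 higher, 8 lower, median 0.19, beside 0.37 in parental cells) and without control replicate 2 (median 0.01). CD63, a lysosomal tetraspanin, had 473, 569 and 451 CPM in control and 282, 268 and 263 CPM in arsenite and fell by 0.88 ± 0.07, NPC2 fell by 0.83 ± 0.08 and MANBA rose by 1.39 ± 0.12. Integrin, laminin and junction genes had 18 of 39 higher and 11 lower at a median of 0.24, which was -0.16 after the correction. DSP, desmoplakin, had 19.4, 19.9 and 24.4 CPM in the control libraries and 94.6, 93.6 and 87.4 CPM in the arsenite libraries and rose by 2.11 ± 0.11. CTNNB1, β-catenin, had 85.2, 68.8 and 90.6 CPM in control and 286, 290 and 289 CPM in arsenite and rose by 1.82 ± 0.07, and LAMA2 fell by 1.40 ± 0.13.

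Guidance molecules, tubulins and clock genes complete the lists. Of 36 semaphorins, plexins, ephrins and EPH receptors 10 rose (27.8%) and 9 fell (25%), beside 33% and 31.2% of all genes tested. Their median of -0.07 was 0.16 with library totals alone and -0.45 with the coding-length correction. SEMA7A, a membrane-anchored semaphorin, had 163, 162 and 118 CPM in the control libraries and 12.7, 11.7 and 13.5 CPM in the arsenite libraries and fell by 3.55 ± 0.15. In contrast, SEMA4B and PLXNA3 rose by 0.77 ± 0.08 and 0.76 ± 0.12. Tubulins rose in 17 of 19 cases at a median of 0.71, the other 2 not passing the test, with TUBB2A at 19.9, 16.6 and 18.4 CPM in control and 56.6, 53.2 and 60.7 CPM in arsenite and a log2 change of 1.63 ± 0.08, and TUBA1A at 1.34 ± 0.11. Tubulin genes resemble one another, and reads may be split among them. Of 15 clock genes 7 rose and 3 fell (median 0.27, -0.01 with the correction). NR1D1, the repressor REV-ERBα, had 35.1, 30.7 and 35.6 CPM in the control libraries and 137, 128 and 133 CPM in the arsenite libraries and rose by 1.97 ± 0.08, DBP rose by 1.28 ± 0.08, and CLOCK, at 65, 60.7 and 65.2 CPM in control and 42.5, 41.5 and 39.3 CPM in arsenite, fell by 0.63 ± 0.08.

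Gene families defined by their symbol alone gave a view that does not depend on curated lists. Their medians were not corrected for coding length, and the part of coding length in their ranking was not tested. With that correction the list of cytosolic ribosomal proteins had a median of -0.14. Of 74 symbol stems with at least 15 tested coding genes, the DHX helicases had the highest median, 1.27, followed by INTS (Integrator subunits) at 1.08, KDM at 0.98, NUP (nucleoporins) at 0.97, KIF (kinesins) at 0.88, DDX helicases at 0.75, CEP at 0.56 and RBM at 0.51. DHX9, an RNA helicase, had 68.7, 56.2 and 64 CPM in control and 285, 283 and 274 CPM in arsenite and rose by 2.15 ± 0.06. Lowest were SMIM (small integral membrane proteins) at -0.89, MFSD transporters at -0.73, ZDHHC (palmitoyltransferases) at -0.65, RPL at -0.64, RPS and COX at -0.63, TIMM at -0.58 and TMEM at -0.55. Of the 158 TMEM genes 9 rose and 105 fell.

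Noncoding genes were lower far more often than higher. Of 960 lncRNA genes 50 rose and 377 fell (median -0.48), of 124 pseudogenes 11 rose and 36 fell, and of 34 small and structural RNA genes 3 rose and 21 fell (median -1.49). Host genes of small nucleolar RNAs had 4 of 30 higher and 19 lower at a median of -0.67. SNHG26 had 15.4, 14.6 and 20 CPM in control and 3.72, 4.5 and 4.8 CPM in arsenite and fell by 1.93 ± 0.14, SNHG10 fell by 1.81 ± 0.23, and the coding host TAF1D, at 67.4, 68.6 and 66.6 CPM in control and 131, 142 and 133 CPM in arsenite, rose by 1.00 ± 0.05. MALAT1, a nuclear speckle lncRNA, had 131, 162 and 170 CPM in the control libraries and 341, 331 and 324 CPM in the arsenite libraries and rose by 1.11 ± 0.11 (adjusted p = 3.32e-09). NEAT1, the scaffold of paraspeckles, had 149, 178 and 184 CPM in control and 75.3, 63 and 71.6 CPM in arsenite and fell by 1.29 ± 0.10. The unnamed gene ENSG00000261889 had 2.16, 1.73 and 1.99 CPM in control and 12.2, 13.8 and 14.7 CPM in arsenite and rose by 2.78 ± 0.21, while ENSG00000289182, at 10.4, 10.4 and 10.1 CPM in control and 1.99, 0.973 and 1.84 CPM in arsenite, fell by 2.71 ± 0.24 and ENSG00000260328, at 12.6, 12.6 and 13.6 CPM in control and 2.5, 2.41 and 2.16 CPM in arsenite, fell by 2.46 ± 0.25.

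Some noncoding values are less certain. RN7SL1, the RNA of the signal recognition particle, had 24.8, 77.7 and 118 CPM in the control libraries and 16.2, 15.1 and 12.4 CPM in the arsenite libraries, so its controls differed several-fold among themselves. It fell by 2.34 ± 0.48, and its near-copy RN7SL3, at 3.91, 12.1 and 16 CPM in control and 2.43, 2.2 and 1.82 CPM in arsenite, fell by 2.31 ± 0.44. Among the largest noncoding rises, KRT8P36 and DDX12B are pseudogenes with close coding copies (1.12 ± 0.30 and 1.03 ± 0.20), and ENSG00000291003 shares 73.9% of its exonic length with another gene (1.21 ± 0.15). MT-TI, a mitochondrial tRNA with 7.07, 7.86 and 5.24 CPM in control and 20.5, 21.4 and 18.5 CPM in arsenite, rose by 1.58 ± 0.21, the single riser among the 20 tested genes of the mitochondrial genome, of which 18 fell. By position relative to coding genes, of 172 that start within 10 kb downstream of a coding gene on its strand 12 rose and 63 fell, of 347 antisense ones 13 rose and 143 fell, and of 441 others 25 rose and 171 fell.

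**Figure D3:**
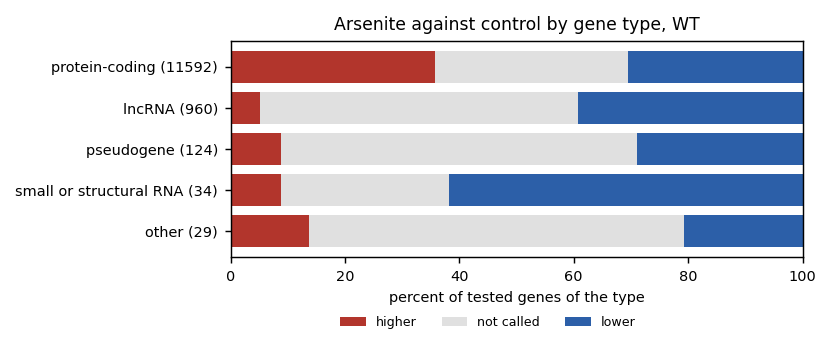
Share of tested genes of each type called higher, not called or called lower in WT cells after arsenite, x axis percent of tested genes of the type, number of genes in parentheses. Protein-coding genes are 35.7% higher and 30.5% lower, while lncRNA genes are 5.21% higher and 39.3% lower.

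Higher and lower coding genes differed in the length of their coding sequence, taken from the canonical transcript. Among the quartile of genes with the shortest coding sequence (up to 879 nucleotides) 7.18% were higher and 59.7% lower, and among the quartile with the longest (2253 nucleotides or more) 60.2% were higher and 11.2% lower. Medians of the quartiles were -0.43, -0.04, 0.29 and 0.53 in WT cells. On library totals they were -0.20, 0.19, 0.52 and 0.76 in WT cells and -0.28, 0.08, 0.43 and 0.67 in the parental pair. Genes called higher had a median coding length of 2038 nucleotides and 14 exons, genes called lower 897 nucleotides and 6 exons, and genes not called 1323 nucleotides and 9 exons. Across the 11579 nuclear coding genes, which are not independent replicates, Spearman's rho with the log2 change was 0.518 for coding length, 0.448 for exon number, 0.211 for genomic span, 0.195 for transcript length, -0.0936 for 3′ UTR length and -0.0436 for GC content, and for coding length it was 0.548 in the parental pair.

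Untranslated regions were looked at in the same way. Among genes in the longest quartile of coding length, those with the shortest 3′ UTRs were higher in 72.3% of cases and those with the longest in 46.4%. In the shortest quartile of coding length these shares were alike, 5.56% and 4.4% higher, with 61.6% and 61.8% lower. An AU-rich nonamer in the 3′ UTR, made of 2 overlapping copies of ATTTA and known as an instability signal, was found in 895 genes, of which 33.1% were higher and 32.4% lower, against 36% and 30.3% of genes without it. TATAAA was in 4.98% of all promoters, in 11.6% of those of genes more than 4-fold higher and in 7 of the 26 of genes more than 4-fold lower (26.9%).

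**Figure D4:**
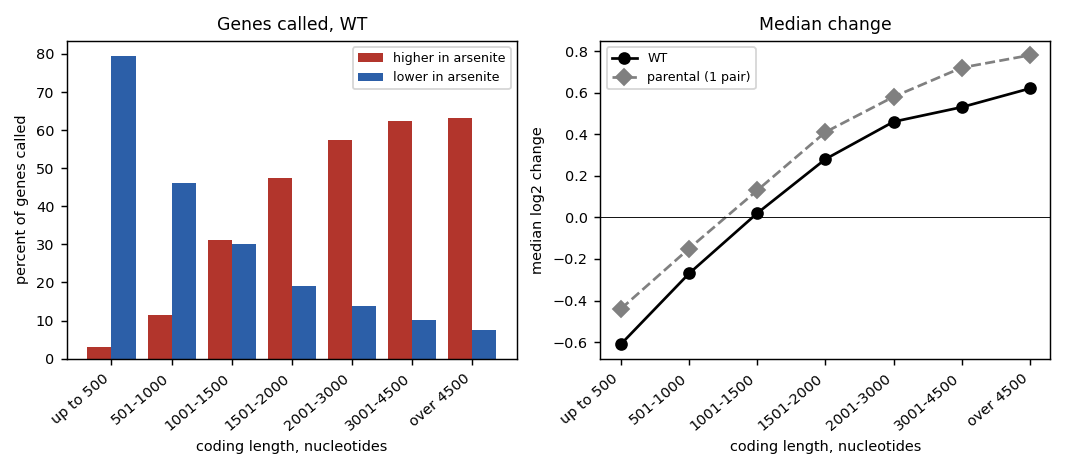
Left, percent of coding genes called higher or lower in WT cells by class of coding length in nucleotides; right, median log2 change per class in WT cells (TMM scale) and in the single parental pair (library totals). The share called higher goes from 3.02% in the shortest class to 63.3% in the longest, and the share called lower from 79.5% to 7.59%.

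Single libraries also differed by coding length within the control group, by less. Control replicate 2 differed from the mean of the other controls by a median of 0.10 for the shortest quartile and -0.09 for the longest, a span of -0.19, while the other controls had spans of 0.08 and 0.11 and arsenite libraries -0.02 to 0.03. Every arsenite library against the control mean gave a span of 0.91 to 0.95, and every control against the arsenite mean one of -0.86 to -1.05. A correction for coding length, fitted within each library and chosen after the data had been seen, left 6699 coding genes called, 3353 higher and 3346 lower. Of these 5211 were called in the same direction without the correction and 54 in the opposite direction. Lists with medians of at least 0.50 under it were the EGR list (1.05), HSP70 (0.58) and HSP90 (0.63) chaperones, integrated stress response (0.57), mitosis (1.15), histones (1.19), SR proteins (0.75), tRNA synthetases (0.50), tubulins (0.56) and stress granule proteins (0.60). The part of library differences in the length pattern was not tested.

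**Figure D5:**
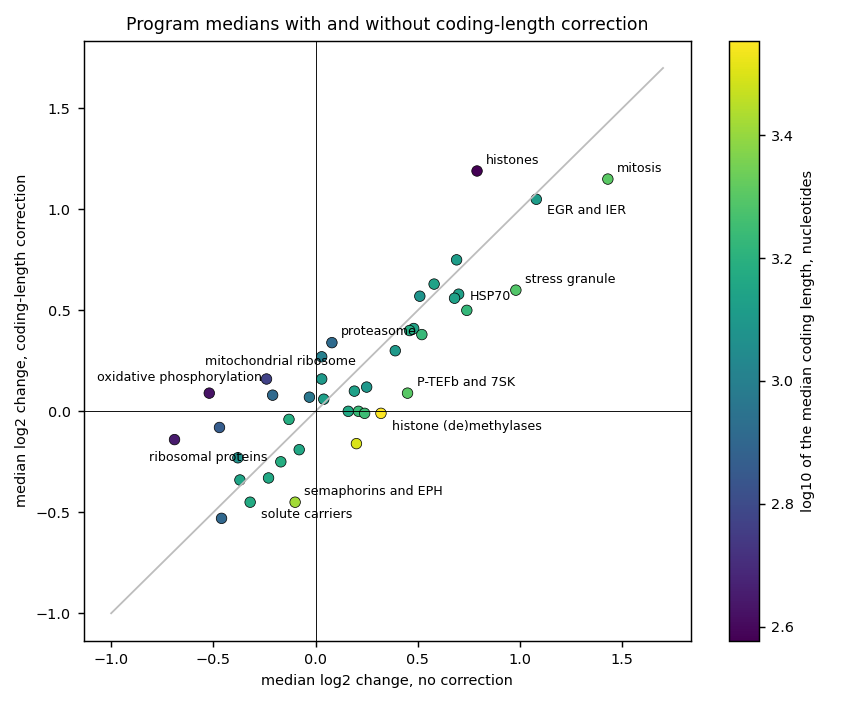
Median log2 change of each gene list without correction (x axis) and with the coding-length correction (y axis), coloured by the log10 of the median coding length of the list in nucleotides. Both axes come from fits of the 11579 nuclear coding genes alone. Mitosis genes stay high in both (1.43 and 1.15), while cytosolic ribosomal proteins move from -0.69 to -0.14 and oxidative phosphorylation genes from -0.52 to 0.09.

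The response of WT cells was then set against that of RQ cells, the same design with the substituted linker. Of 12767 genes, 16 (0.125%) had a response that differed. An unadjusted p under 0.05 was reached by 422 genes, fewer than the share of 0.05 that tests without any difference would give. For each of the 16 the log2 change was higher in RQ than in WT cells. Of the WT calls 7654 were called in RQ cells in the same direction, 93.4% of the WT and 91.6% of the RQ calls. CHAC1 had 1.95, 3.08 and 2.4 CPM in RQ control libraries and 65.1, 75.2 and 82.8 CPM in RQ arsenite libraries, against 18.9, 20.3 and 21.9 CPM in the WT arsenite libraries. Its response differed by 1.81 ± 0.27 on the log2 scale (edgeR interaction test, adjusted p = 0.00171). SESN2 had 11.8, 8.81 and 11.7 CPM in RQ control libraries and 115, 126 and 157 CPM in RQ arsenite libraries, against 56.9, 57.2 and 61.4 CPM in WT arsenite, a difference of 1.50 ± 0.16 (adjusted p = 3.07e-05). DDIT4 had 18.8, 18.5 and 15.5 CPM in RQ control libraries and 227, 265 and 295 CPM in RQ arsenite libraries, against 87.5, 97.3 and 101 CPM in WT arsenite, a difference of 1.37 ± 0.14 (adjusted p = 1.28e-05). In all these genes the RQ arsenite libraries lay above every WT arsenite library while the controls were near one another.

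Other integrated stress response genes were among the 16. ATF4 itself differed by 0.42 ± 0.06, with 722, 744 and 758 CPM in RQ control libraries and 778, 810 and 859 CPM in RQ arsenite libraries, with log2 changes of -0.28 in WT and 0.14 in RQ cells. The hormone STC2 differed by 0.89 ± 0.11, with a log2 change of -0.74 in WT and 0.14 in RQ cells. CEBPB, a partner of ATF4, differed by 0.60 ± 0.09 and the amino acid transporter SLC38A2 by 0.47 ± 0.09. EGR1 and JUND of the immediate early genes and the feedback inhibitor ERRFI1 differed by 0.62 ± 0.12, 0.31 ± 0.06 and 0.41 ± 0.05, in that order. For EGR1 the arsenite libraries were alike, at 2443, 2162 and 2448 CPM in RQ and 2371, 2066 and 2348 CPM in WT cells. Its RQ controls were lower, at 75.6, 64.9 and 72.9 CPM against 103, 97.8 and 114 CPM in WT cells. The count moved with single libraries: leaving out WT arsenite replicate 2 or RQ arsenite replicate 3 gave 9 genes, and leaving out WT control replicate 2 gave 22.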

How the data were processed

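Poly(A) RNA was measured with directional single-read libraries, and the deposited values are raw counts per gene in column 7 of featureCounts output (strand setting 2, GENCODE 46 annotation), which the authors made from reads aligned to hg38. The submitters' processing notes name STAR 2.7.11b, Subread 2.0.6, FastQC 0.11.9 and bcl2fastq 2.20.0.422. Gene names, types and coordinates came from GENCODE 44, which matched 62541 of 63086 identifiers (99.1%), and coding lengths from its canonical transcripts. Members and gene lists were chosen with earlier results of these data known.

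Counts were normalized by TMM and tested with edgeR 4.0.16 (quasi-likelihood, two-sided) in R 4.3.3. The fit held 24 libraries in 8 groups (WT, RQ, S181E and Y396E, each with and without arsenite), leaving 16 residual degrees of freedom, and the genes tested had a mean of at least 1 CPM over the WT libraries. Calls needed a Benjamini-Hochberg adjusted p under 0.05 over all genes tested and a fold above 1.2, a log2 change of 0.26. A prior count of 2 entered only the log2 CPM used to correlate libraries and to fit the loess trends, not the fitted log2 changes. Adjusted p-values in the text come from this test, and those for RQ against WT from its interaction term. Dishes were plated independently, so p-values measure the spread between dishes of the cell lines. The common biological coefficient of variation was 0.0863 and the median SE of a WT log2 change was 0.0927. The test was also run on simulated counts in which few genes changed and no trend with coding length was set. Such counts cannot show how it behaves when most genes change, as here. Parental log2 ratios used library totals and no TMM factors.

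Named genes were the 2 largest called changes of a list in its main direction and the largest in the other, with a mean of at least 5 CPM and separated groups, plus the 6 largest noncoding and 5 largest abundant coding changes each way, the IGF2BP genes and the 3 largest RQ differences. Other genes were named for their role, with their values known, and some genes that the rule selects are not reported here. Alternatives were DESeq2 1.42.0 and its size factors, library totals, other low-count filters, fewer groups, a replicate block and leaving out libraries. Corrections for coding length and GC content (a loess trend per library) were chosen after the data had been seen. Promoters, 250 bases before to 50 after the gene start, came from a RefSeq GRCh38.p14 table that matched 9469 of 11592 tested coding genes by symbol.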

Additional observations from a re-analysis of the deposited data

Results flagged for a closer look

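The arsenite response differed between RQ and WT cells for 16 of the genes tested, by the interaction test in the shared fit, and for each of them the RQ response was the higher. In order of adjusted p, for those reported here the RQ response minus the WT response on the log2 scale was 1.37 for DDIT4, 1.50 for SESN2, 0.89 for STC2, 0.41 for ERRFI1, 0.91 for ITPRIP, 0.42 for ATF4, 1.81 for CHAC1, 0.60 for CEBPB, 0.88 for GEM, 0.46 for SIAH2, 0.45 for SERTAD1, 0.40 for PMAIP1, 0.47 for SLC38A2, 0.62 for EGR1 and 0.31 for JUND. DDIT4, SESN2, STC2, ATF4, CHAC1, CEBPB and SLC38A2 belong to or are known to act with the integrated stress response. In parental cells, which carry neither the transgene nor the knockouts, the single pair gave log2 ratios on library totals of 1.88 for CHAC1, 1.69 for SESN2 and 2.73 for DDIT4, beside 3.33, 2.35 and 2.76 in WT cells on the same scale.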

How the results depend on the processing

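The WT response gave 8195 called genes, and 8191 with the replicate block, 8864 with the WT groups alone, 8256 by DESeq2, 8221 with DESeq2 size factors, 8676 without a low-count filter, 6532 at a mean of at least 10 CPM, and 7809 to 8063 when 1 WT library was left out. Coding calls ranged from 7359 to 7602 and noncoding calls from 445 to 476 when 1 library was left out. Noncoding calls were 918 without a low-count filter and 122 at a mean of at least 10 CPM, where more or fewer genes were tested. The study filter keeps coding genes alone, so it gave no noncoding count. The RQ difference gave 16 genes, 31 by DESeq2, 34 without Y396E arsenite replicate 3 and 9 to 22 without 1 library. The cause of these changes was not tested.

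Same-numbered WT control and arsenite libraries correlated at 0.0174, 0.0292 and 0.0339 in their deviations from the group means, all under 0.1. The numbers were therefore not taken as pairs, although each library correlated best with its own number. With the replicate block, coding calls were 7671, noncoding calls 520 and RQ differences 21, and within the compared groups alone 8869 genes, 8109 coding, 760 noncoding and 37 RQ differences.

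Medians changed sign for AP-1 genes (0.05 with library totals, 0.04 at 10 CPM, 0.02 with the study filter, 0.08 with coding length). With library totals they also did so for ER chaperone and unfolded protein response genes (0.09), SRF and YAP targets (0.03) and NF-κB genes (0.13). Lysosomal genes (0.19), mitochondrial ribosomal proteins (0.03) and semaphorins (0.16) likewise changed sign with library totals. With the GC correction they did so for p53 targets (-0.09), translation factors (-0.01) and fatty acid genes (-0.06). With coding length they did so for demethylases (-0.01), oxidative phosphorylation (0.09), mitochondrial ribosomal proteins (0.16), integrins (-0.16), clock genes (-0.01) and the gene H2AC25 (0.16). Chromosome 19 zinc fingers gave -0.05 at 10 CPM and -0.07 with the study filter, and NF-κB genes 0.14 and 0.12. Lysosomal genes gave 0.01 without WT control replicate 2. Library totals also turned the second quartiles of coding length (0.19) and exon number (0.08) and the shortest exonic length (0.02), and the filter at 10 CPM turned the second quartile of genomic span (-0.02). Of the 146 named genes none changed its call when 1 WT library was left out, in 876 comparisons of a gene between fits. Most of them were chosen for large called changes with separated groups in these same libraries. Their unchanged calls were therefore largely set by that choice and say little about other genes. With library totals 3 lost the call and with coding length 7, and coding length brought 2 others over the threshold. Of the 220 called genes that the Results name, 13 lost the call with library totals and 4 without WT control replicate 2.

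With 3 dishes per group, 1 time point and 1 dose, small changes of low genes were not detectable at this depth.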
